A study of Homo sapiens with 4 samples.

Results

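Of the 19192 genes counted in these libraries, 8 are the replacement histone genes described here, found in the tables by their symbols: H2AFZ, H2AFX, H2AFV and H2AFY of the H2A family, H3F3A and H3F3B of the H3 family, and the linker histone genes H1F0 and H1FX. They were set against the 60 genes whose symbols begin with HIST1, HIST2, HIST3 or HIST4, the histone cluster genes. The cells were SW480, an established human colorectal adenocarcinoma line, either wild type or labelled IMP1-/-, that is, lacking the RNA-binding protein IMP1 encoded by IGF2BP1. Total RNA and ribosome-protected fragments (RPF, the short mRNA pieces shielded by translating ribosomes) were sequenced from each genotype, which gave 4 libraries, 1 per group, each prepared from 3 culture plates pooled together. The labels do not say whether the mutant cells were 1 clone. One label of the wild-type RNA library names the line SW840, while its other labels and those of the other libraries name SW480. With 1 library per group, no difference given here has a replicate check, no p-value can be given, and genotype cannot be told apart from culture or library preparation.

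IGF2BP1, the gene named by the genotype label, had 598 RNA reads in the wild-type and 571 in the mutant library, and 285 and 149 RPF reads. Its RNA ratio was 1.06 and its RPF ratio 0.523, mutant over wild type after scaling. The read counts therefore show lower footprint density but not loss of the transcript, and the mutant libraries are called knockout-labelled throughout. Library totals ran from 3778316 to 5551479 reads. Of 9 markers of intestinal epithelium, 7 were detected: KRT8, KRT18, KRT19, EPCAM, CDH1, CDX2 and VIL1. LGALS4 and KRT20 had no reads in any library, and VIL1, which encodes villin, had 160 and 335 reads in wild-type RNA and RPF against 2 and 0 in the knockout-labelled libraries. CDH1, which encodes E-cadherin, was called higher, with 83 and 286 RNA reads and 88 and 275 RPF reads in wild-type and knockout-labelled cells. CDX2, KRT8 and KRT18 were called lower in RNA, 2.34-fold, 1.59-fold and 1.53-fold. Markers of other cell types were sparse. The 6 fibroblast markers summed to 2 to 30 reads a library with DCN at 0, and of the leukocyte markers PTPRC and CD3E were at 0 and CD14 at 0 to 14 reads. The 3 endothelial markers summed to 0 to 58 reads and the 3 neuronal markers to 80 to 149.

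DNA is wound around an octamer of core histones, and linker histones bind where it enters and leaves the nucleosome. Most histone protein is made in S phase from the HIST cluster genes, whose mRNAs typically have no introns and end in a conserved stem-loop instead of a poly(A) tail, the stem-loop being bound by SLBP. Replacement histones are made throughout the cell cycle, mostly from polyadenylated mRNAs, and are placed into chromatin outside replication by their own chaperones. Because RNA was depleted of ribosomal RNA with RiboZero, and no poly(A) selection is named in the labels' protocols, both kinds of histone mRNA could be counted.

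The 3′ ends were read for the transcripts named in the deposited tables. The stem-loop was searched on the sense strand as GGNNNT, a loop of the form NTNN, and the reverse complement of the stem. Shown here are the match in H2AFX, the only member with one, and those of the most abundant cluster gene of the H2A, H2B, H3 and H4 classes. Capitals mark the stem and loop, and the sequences are from the GENCODE 29 transcripts (GRCh38).
H2AFX: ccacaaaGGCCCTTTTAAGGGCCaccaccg
HIST1H2AC: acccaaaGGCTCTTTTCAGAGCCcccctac
HIST1H2BC: ccccaaaGGCTCTTTTAAGAGCCacccaga
HIST1H3H: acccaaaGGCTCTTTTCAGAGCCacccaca
HIST1H4J: aataaaaGGCCCTTTTCAGGGCCacccta

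A match anywhere in the transcript was found in 1 of the 8 members, in 22 of the 60 cluster genes and in 89 of all 19176 transcripts found in the reference (0.464%). The reference transcript ended at the stop codon for 34 cluster genes, so no downstream sequence could be searched there. All 22 cluster matches lay among the 26 cluster transcripts with a 3′ UTR. In H2AFX the stem-loop began at base 555 of a 1614-base transcript, so the same gene model carries sequence for a short stem-loop end and for a longer end downstream of it. Within the last 100 bases, AATAAA or ATTAAA, the hexamers that direct cleavage and polyadenylation, was present in 5 of the 8 members, against 14 of 60 cluster transcripts (23.3%) and 72.4% of all transcripts. Among transcripts with a 3′ UTR in the reference the shares were 5 of 8 members (62.5%), 14 of 26 cluster transcripts (53.8%) and 75.8% of all. The stretches of the 5 members are printed with each hexamer in capitals.
H2AFZ: gtggataagttcAATAAAggtcatatccca
H2AFX: tggactaattttATTAAAggattgtttttt
H3F3A: ctATTAAAatacATTAAAct
H1F0: ttaaaactttaaAATAAAttggaaaaggga
H1FX: ttttttgggcacAATAAAgcgtttaaacct

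The first base of the hexamer lay 20 bases before the transcript end in H2AFZ, 45 in H2AFX, 26 in H1F0 and 22 in H1FX. H3F3A had 2 matches, 18 and 8 bases before its end. No hexamer was in that window of the transcripts used for H2AFV, H2AFY and H3F3B, which says only that these letters are not in the last 100 bases of those models. The genes lie on 8 chromosomes, unlike the clustered HIST genes. On GRCh38, H2AFZ is at chr4:99948088-99950388 on the minus strand (5 exons), H2AFX at chr11:119093854-119095467 on the minus strand (1 exon), H2AFV at chr7:44834228-44848063 on the minus strand (5 exons) and H2AFY at chr5:135333900-135399622 on the minus strand (9 exons). H3F3A is at chr1:226062678-226071999 on the plus strand and H3F3B at chr17:75778574-75779780 on the minus strand, with 4 exons each. H1F0, at chr22:37805093-37807436 on the plus strand, and H1FX, at chr3:129314771-129316277 on the minus strand, each have a single exon.

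In total RNA, 5 of the 8 replacement histone genes were called lower in the knockout-labelled library and none higher, with a median log2 change of −0.63 (1.54-fold lower). A call required a ratio of at least 1.5-fold, a 95% counting interval that excludes no change, and 50 or more reads in the RNA (or RPF) libraries together. By the same rule 17.8% of the 10875 genes tested in RNA were called lower and 16.2% higher, with a median of −0.01 over all of them. In RPF 1 member was called lower and none higher, with a median of −0.20, where 20.1% of 9794 genes were called lower and 19.0% higher, so the members' RPF count is near that of all genes. At a 2-fold call 2 members, H2AFZ and H2AFX, were lower in RNA and none in RPF, beside 8.35% and 9.87% of all genes tested. Intervals on log2 changes, levels and shares cover counting error only.

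H2AFZ, which encodes the H2A.Z variant placed at promoters by the SRCAP and EP400 remodelling complexes, had 1978 wild-type and 753 knockout-labelled RNA reads and 2108 and 1248 RPF reads. Both knockout-labelled libraries were below the wild-type libraries, and the difference was larger in RNA. The RNA change was −1.24 (95% interval −1.37 to −1.12, 2.36-fold lower) and the RPF change −0.76 (−0.86 to −0.66, 1.69-fold lower). It was the only member called lower in both kinds of library.

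H2AFX encodes H2A.X, the variant phosphorylated beside DNA double-strand breaks. It had 963 and 354 RNA reads and 443 and 307 RPF reads in wild-type and knockout-labelled cells. Its RNA change of −1.29 (−1.47 to −1.12, 2.45-fold lower) was the lowest of the members. The RPF change of −0.53 (−0.74 to −0.32) corresponds to a ratio of 1.44, just under the 1.5-fold call.

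H2AFV encodes the second H2A.Z protein, and its coding sequence matched that of H2AFZ at 80.5% of bases. Its reads were 1060 and 610 in RNA and 862 and 638 in RPF. The RNA change of −0.65 (−0.79 to −0.50, 1.56-fold lower) was called and the RPF change of −0.43 (−0.58 to −0.29) was not. H2AFY, which encodes the macroH2A variant with a large non-histone domain, stood at 984 and 902 RNA reads and 840 and 863 RPF reads. Its RNA change was 0.03 (−0.11 to 0.16) and its RPF change 0.04 (−0.10 to 0.18), so both intervals held 0 and left room for less than 1.5-fold either way.

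The H3 variant H3.3 is made from both H3F3A and H3F3B, whose coding regions differ at 88 of 408 bases and encode the same 136 residues. H3F3A had 1403 and 784 RNA reads and 2523 and 1768 RPF reads. The RNA change was −0.69 (−0.82 to −0.56, 1.61-fold lower), which was called, and the RPF change −0.51 (−0.60 to −0.43), which was not. H3F3B had 852 and 795 RNA reads and 1684 and 2220 RPF reads. For H3F3B the RNA change was 0.05 (−0.09 to 0.19) and the RPF change 0.40 (0.31 to 0.49), a higher footprint count that stayed below the call. So the 2 genes for the same protein differed in RNA and in RPF, and their intervals overlap in neither.

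Several members share sequence with other genes, and how the authors assigned reads that match several copies is not given in the sources used here. Every 28-base window of the H3F3A coding region was also found in another gene's transcript, as were 58.3% of those of H2AFZ, 45.9% of H3F3B, 45.1% of H2AFV and 19.2% of H2AFX. For H2AFY, H1F0 and H1FX the share was 0%. H3F3C, an intronless copy of H3F3B, had 927 and 822 RNA reads and 734 and 1032 RPF reads. With H3F3C added to H3F3B, an alternative chosen after seeing the data, the sums were 1779 and 1617 RNA reads and 2418 and 3252 RPF reads, with changes of 0.01 in RNA and 0.43 in RPF, neither of them called.

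H1F0 encodes H1.0, the linker histone that accumulates in non-dividing and differentiated cells. It had 1957 and 2315 RNA reads and 1462 and 2141 RPF reads, the only member whose scaled RNA level in knockout-labelled cells was above wild type with an interval excluding no change. The RNA change was 0.39 (0.31 to 0.48, a ratio of 1.31) and the RPF change 0.55 (0.45 to 0.65, a ratio of 1.46), both under the call. H1FX, which encodes the linker histone H1.X, went the other way in RNA, with 869 and 513 reads, while its RPF reads were 617 and 668. Its RNA change of −0.61 (−0.77 to −0.45, 1.52-fold lower) was barely past the call, and its RPF change was 0.11 (−0.05 to 0.27).

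**Figure D1:**
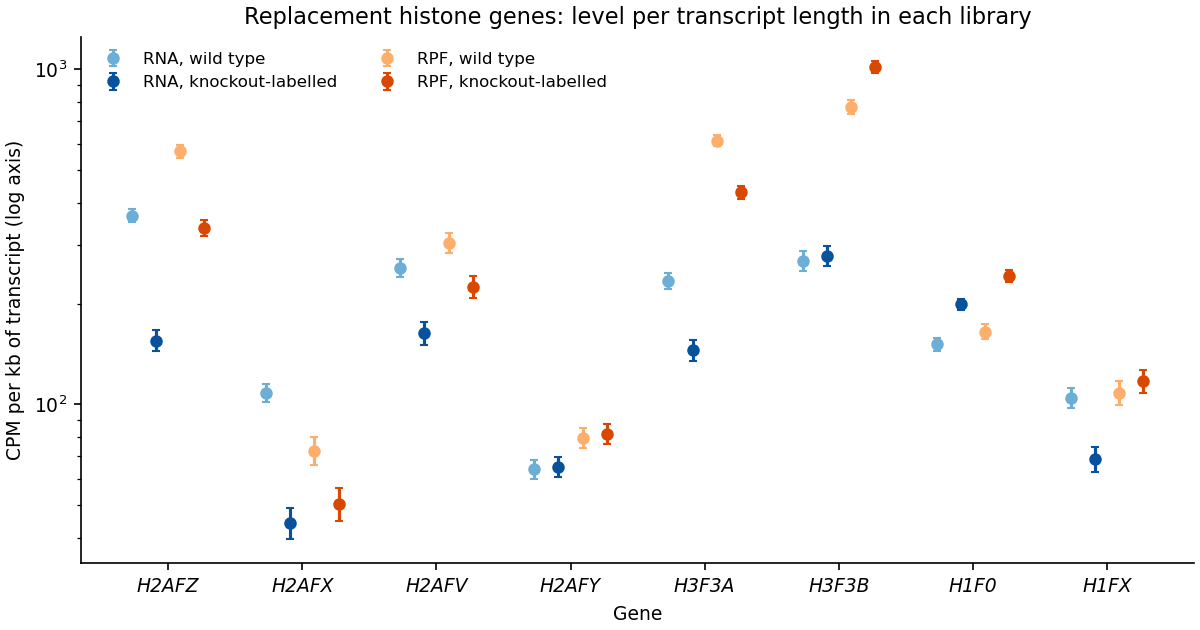
Level of each replacement histone gene in the 4 libraries, in scaled CPM (reads scaled to a common library size) per kb of transcript on a log axis; points are single libraries and bars 95% counting intervals. H2AFZ and H2AFX show the widest gaps between the RNA libraries, and H3F3B in knockout-labelled RPF is the highest point at 1019 CPM per kb.

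Levels per kb of transcript can be compared between genes. In wild-type RNA H2AFZ was highest at 366 CPM per kb, followed by H3F3B at 268, H2AFV at 256 and H3F3A at 234. The intervals of H3F3B and H2AFV overlapped, as did those of H2AFV and H3F3A. Below them came H1F0 at 151, then H2AFX at 108 and H1FX at 105, which overlapped, and H2AFY at 64.0.

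In knockout-labelled RNA the order was different: H3F3B led at 278 CPM per kb and H1F0 was next at 199. H2AFV at 163, H2AFZ at 155 and H3F3A at 145 followed with overlapping neighbours, then H1FX at 68.6 and H2AFY at 65.1, also overlapping, and H2AFX at 44.2. H2AFZ thus went from the first to the fourth rank and H1F0 from the fifth to the second. In RPF per kb of transcript, H3F3B and H3F3A were the first and the second in both genotypes, at 774 and 614 CPM per kb in wild type and 1019 and 430 in knockout-labelled cells, and H2AFX was lowest at 72.6 and 50.3. In wild-type RPF the interval of H3F3A overlapped that of H2AFZ at 570, and the interval of H2AFX overlapped that of H2AFY at 79.7. These orders depend on the length used: per kb of coding sequence H2AFZ still led wild-type RNA at 934 CPM per kb, but H3F3B, which has the shortest transcript of the members, was the sixth at 379, and H1F0 led knockout-labelled RNA at 801. In wild-type RPF the order per coding kb began with H3F3A at 1636, H2AFZ at 1452 and H3F3B at 1092, and H2AFY was lowest at 199. In knockout-labelled RPF H3F3B at 1439, H3F3A at 1146 and, as the lowest, H2AFX at 189 kept their ranks. The highest member was 20.3 times the lowest there per kb of transcript and 7.60 times per coding kb.

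Set beside the cluster genes, the replacement genes stood apart in RNA. Of the 60 cluster genes, 54 had enough reads, and 54 of 54 were called lower in RNA, with a median of −2.31 (4.96-fold lower) and a range of −3.64 to −0.98. In RPF 53 of 54 were called lower, with a median of −1.98; the exception, HIST4H4, had a change of −0.51 on 792 and 557 reads and is named after its values were seen. The change of 52 of the 54 cluster genes in RNA lay below that of H2AFX, the lowest member, and in RPF 53 of 54 lay below that of H2AFZ. Copies whose coding 28-base windows are all shared had close counts in some pairs, as for HIST2H3A and HIST2H3C with 1255 and 1212 wild-type RNA reads, and less close ones in HIST1H4J and HIST1H4K with 1682 and 1170. Cluster genes share sequence and are not independent measurements.

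By class, the RNA medians of the cluster genes were −2.80 for H1 (2 genes), −2.16 for H2A (15 genes), −1.80 for H2B (13 genes), −2.40 for H3 (13 genes) and −2.14 for H4 (11 genes). HIST1H3H had 1449 and 187 RNA reads and 3160 and 369 RPF reads, which is 6.96-fold lower in RNA, beside 1.61-fold for H3F3A. HIST1H2AC had 1338 and 481 RNA reads and 2018 and 1154 RPF reads, 2.50-fold lower in RNA and close to H2AFX and H2AFZ. HIST1H1C had 1861 and 347 RNA reads and 2767 and 715 RPF reads, 4.82-fold lower in RNA, where H1F0 was not lower. For HIST1H2BC the reads were 761 and 130 in RNA and 996 and 389 in RPF, and for HIST1H4J they were 1682 and 354 and 4841 and 2033.

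A handful of cluster genes are known to give polyadenylated transcripts as well: HIST1H1C, HIST1H2AC, HIST1H2BD, HIST1H2BK and HIST2H2BE were in the files. All 5 were called lower in both kinds of library, with medians of −1.49 in RNA and −1.23 in RPF. Their RNA median lay between those of the members and of all tested cluster genes. The RNA changes ran from −2.27 for HIST1H1C to −1.12 for HIST2H2BE, and HIST1H2BD, for example, had 627 and 180 RNA reads. Some cluster genes outside this list also lay above its RNA median, such as HIST3H2A at −0.98 and HIST4H4 at −1.35.

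**Figure D2:**
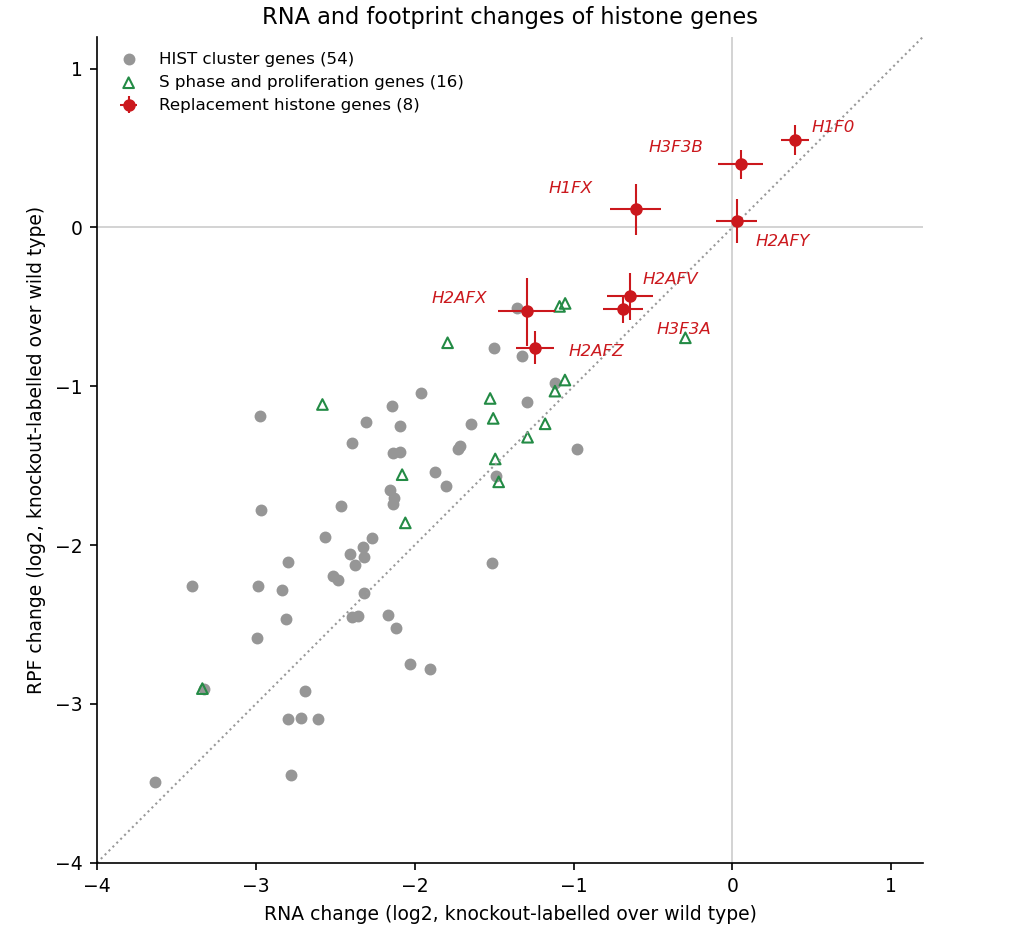
RNA change against RPF change, both as log2 of knockout-labelled over wild type, for the 8 replacement genes with 95% counting intervals, the 54 tested cluster genes and 16 genes of S phase and proliferation; the dotted line marks equal changes. The replacement genes lie at the upper right of the plot, and most cluster genes lie below −1 on both axes.

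Of 16 genes of S phase and proliferation, 15 were called lower in RNA (median −1.48, beside 17.8% of all genes tested) and 13 in RPF (median −1.16, beside 20.1%). H2AFY, H3F3B and H1F0 were not lower in RNA. TYMS, thymidylate synthase, had 566 and 50 RNA reads, RRM2, a ribonucleotide reductase subunit, had 1936 and 418, MCM5 of the replicative helicase had 335 and 50, and MKI67, the proliferation marker Ki-67, had 1264 and 269. In bulk libraries fewer cells in S phase and less RNA per cell cannot be told apart, and the part of either in the histone values was not tested.

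The replacement genes made up a larger share of the counted histone reads in knockout-labelled cells, in each class and in both kinds of library. These shares are taken within a library and need no scaling between libraries. Each class covers only the cluster genes in the deposited counts. The reference also holds HIST1H1E and HIST1H3E, which are not among them. Other replacement variants that were counted are also left out of the main shares. In the H2A class these include H2AFJ, with 266 and 283 RNA reads and 504 and 773 RPF reads, and H2AFY2. CENPA and H3F3C are left out of the H3 class. Shares over every gene of a class could be lower or higher than those given, by an amount that the intervals do not cover. In the H3 class, H3F3A and H3F3B held 19.5% of 11589 wild-type RNA reads (exact 95% binomial interval 18.7 to 20.2) and 52.3% of 3018 knockout-labelled reads (50.5 to 54.1). In RPF their share was 13.5% (13.1 to 13.9) and 48.5% (47.4 to 49.6). In the H2A class, the 4 members held 33.1% (32.4 to 33.9) of wild-type and 54.6% (53.2 to 56.0) of knockout-labelled RNA reads, and 20.1% and 37.6% of RPF reads.

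H1F0 and H1FX held 49.6% (48.3 to 50.9) of counted H1 reads in wild-type RNA and 86.4% (85.2 to 87.6) in knockout-labelled RNA. In RPF they held 33.5% and 75.8%. HIST1H1E is not in these counts. In each of the 3 classes the wild-type and knockout-labelled intervals were far apart. Without HIST1H1C, which holds most of the cluster H1 reads and is counted among the genes with polyadenylated transcripts, the H1 shares were 73.7% and 96.7% in RNA and 60.6% and 93.9% in RPF. With H3F3C counted as a replacement gene, the H3 shares were 25.4% and 62.5% in RNA and 15.5% and 54.2% in RPF.

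The total of the 8 members was 10066 and 7026 RNA reads and 10539 and 9853 RPF reads, that is 0.181% and 0.142% of the RNA libraries and 0.279% and 0.261% of the RPF libraries. The cluster genes together held 0.662% and 0.150% of RNA reads and 1.97% and 0.549% of RPF reads. The total of the members was closer between genotypes than that of the cluster genes, in both kinds of library.

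**Figure D3:**
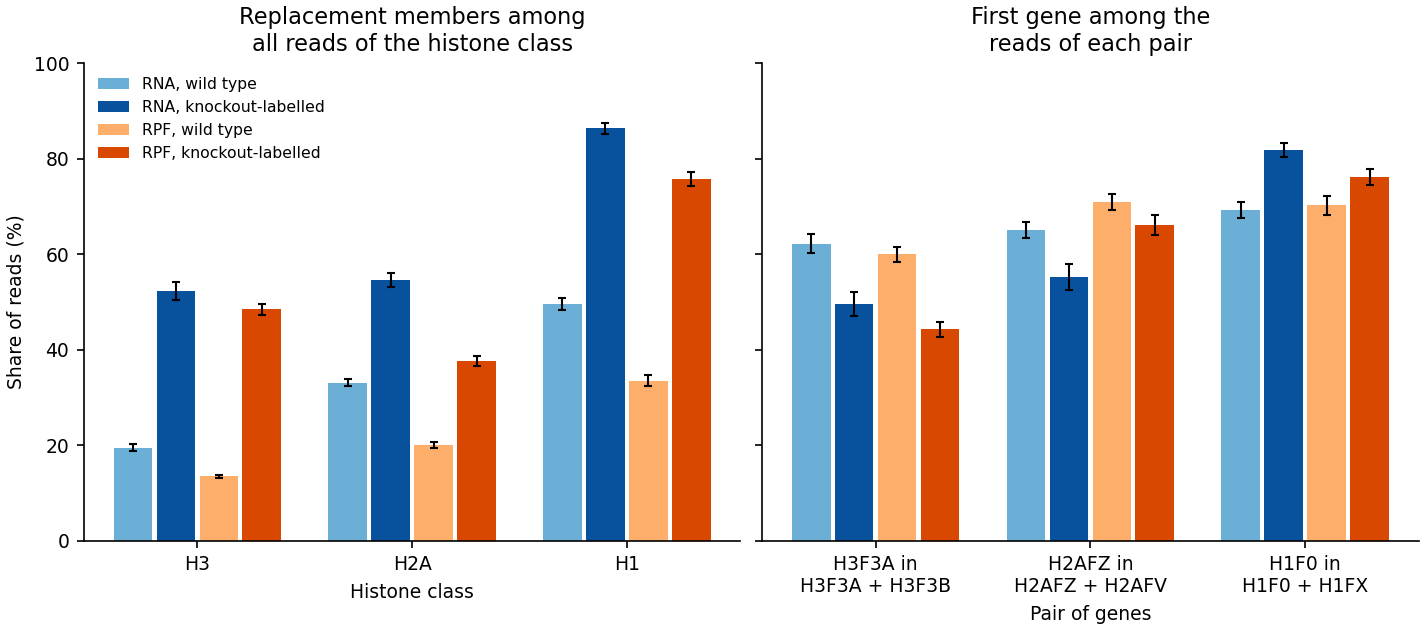
Left, share of the reads of a histone class, members plus cluster genes, that came from the members. Right, share of the first gene within 3 pairs of members. Bars are single libraries with exact 95% binomial intervals, in percent; the replacement share is higher in the knockout-labelled than in the wild-type library for H3, H2A and H1.

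Within pairs of members the balance also differed. H3F3A gave 62.2% (60.2 to 64.2) of H3F3A plus H3F3B reads in wild-type RNA and 49.7% (47.2 to 52.1) in knockout-labelled RNA, and 60.0% and 44.3% in RPF. Adding H3F3C to H3F3B lowered these to 44.1%, 32.7%, 51.1% and 35.2%, with the knockout-labelled share still the lower one in each kind of library. H2AFZ gave 65.1% and 55.2% of H2AFZ plus H2AFV reads in RNA and 71.0% and 66.2% in RPF. H1F0 gave 69.3% and 81.9% of H1F0 plus H1FX reads in RNA and 70.3% and 76.2% in RPF. The direction within each pair was thus the same in RNA and RPF.

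Translational efficiency (TE) is the log2 ratio of scaled RPF to scaled RNA counts, here centred so that 0 is the median of all 9598 genes tested. In wild-type cells the H3.3 genes were the highest members, H3F3B at 1.42 (1.30 to 1.54) and H3F3A at 1.29 (1.19 to 1.38), above 95.9% of genes in the case of H3F3B. H3F3B held 47.9% of H3F3B plus H3F3C reads in wild-type RNA and 69.6% in wild-type RPF. Its TE level therefore rests on how reads were split between these copies. The TE level with H3F3C added was not computed. H2AFZ was at 0.53 (above 71.6% of genes), H2AFY at 0.21 and H2AFV at 0.14. The linker genes H1F0 at 0.02 and H1FX at −0.05 had intervals that held the median of all genes. H2AFX was lowest at −0.68 (−0.84 to −0.52), above 26.4% of genes.

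The cluster genes had a higher TE than most members, with a median of 1.34 over 54 genes against 0.18 over the 8 members; all 54 were above 0, and the 13 H3 cluster genes had a median of 2.09. Which stretch of a transcript the authors counted is not given in the sources used here. This bears on levels of TE. It cancels in the TE change only where the mix of transcript ends is the same in both genotypes, which was not tested. Across 8941 genes, the log2 ratio of wild-type RNA to RPF reads rose by 0.37 per log2 unit of transcript length over coding length. A separate slope of wild-type TE on the same length ratio was fitted over 9589 genes. With this TE slope removed, an alternative chosen after seeing the data, H3F3A was at 1.42, H3F3B at 1.21, H2AFZ at 0.64 and H2AFX at −0.36. The medians were then 0.34 for members and 1.22 for cluster genes.

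The change in TE was taken as the RPF change minus the RNA change, without centring. It was above 0 for 8 of 8 members, with a median of 0.28, against 52.1% of all genes tested and a median of 0.03. With library totals as the scaling, H2AFY was at −0.0044 and 7 of 8 were above 0. Its TE centred within each genotype was also lower in knockout-labelled cells, at 0.19 against 0.21 in wild type. Of the members 2 were called higher and none lower, where 15.7% of all genes tested were called higher and 13.9% lower, and no member was called higher at 2-fold (6.46% of all genes were higher). H2AFX had the largest change among the members, 0.76 (0.49 to 1.04, 1.70-fold), and H1FX the next, 0.72 (0.50 to 0.95, 1.65-fold). Both had RNA that was called lower beside RPF that was not. H2AFZ at 0.48 (0.33 to 0.64), H3F3B at 0.35 (0.18 to 0.51), H2AFV at 0.21, H3F3A at 0.17, H1F0 at 0.16 and H2AFY at 0.01 were not called. In knockout-labelled cells H2AFX reached 0.05, H1FX 0.63, H2AFZ 0.98 and H3F3B 1.73.

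Among the cluster genes 15 were called higher in TE and 4 lower, with a median change of 0.34. The classes were not alike: the H4 median was 0.84 with 8 of 11 genes called higher, and the H3 median was −0.27 with 2 of 13 called lower and none higher. Within the H3 family H3F3A and H3F3B had positive changes, as did 3 of the 13 cluster genes, with HIST2H3A at 0.35 like H3F3B. TE change contains the RNA change with its sign reversed, so the 2 quantities are not independent.

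**Figure D4:**
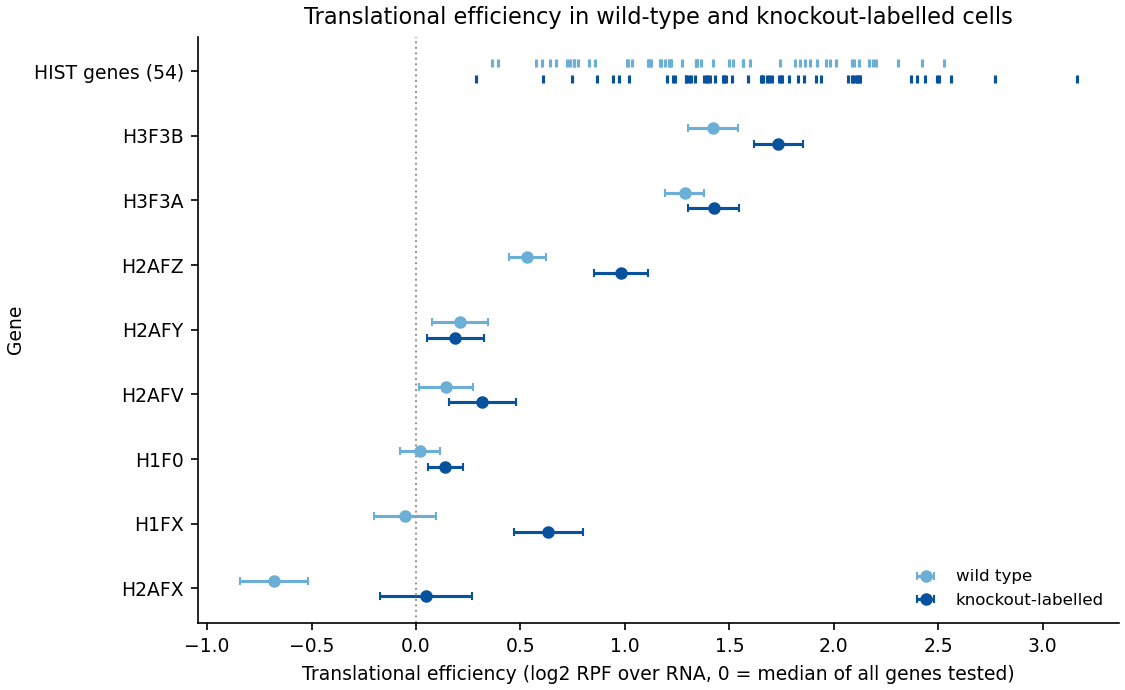
Translational efficiency, log2 RPF over RNA with 0 at the median of all genes tested, in wild-type and knockout-labelled cells, for each member with its 95% counting interval and for the 54 tested cluster genes as ticks. H2AFX and H1FX show the widest gap between genotypes, and every cluster gene lies above 0.

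Of 8 genes for H3.3 deposition, 2 were called lower in RNA and 1 higher, and the median was −0.17. These counts are near the 17.8% and 16.2% of all genes tested. HIRA, the chaperone of H3.3 in active chromatin, had 508 and 298 RNA reads and 125 and 74 RPF reads and was called lower in both. ATRX, which works with DAXX at repeats, had 784 and 376 RNA reads and was called lower in RNA, while its RPF reads were 356 and 335. UBN2, a HIRA partner, was called higher in RNA on 698 and 1722 reads, with 329 and 259 RPF reads. ASF1A, which hands H3 and H4 to HIRA, was called higher in RPF on 121 and 188 reads.

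Of 12 genes for placing and removing H2A.Z, 2 were called lower in RNA, near the 17.8% of all genes tested, and 5 in RPF, beside 20.1%, with none higher. EP400 had 223 and 133 RPF reads and YEATS4 136 and 82, both called lower in RPF only. RUVBL2, an ATPase shared by these complexes, was called lower in both, with 955 and 549 RNA reads and 1640 and 1064 RPF reads. DMAP1 was called lower in RNA, on 81 and 33 reads. Among 8 genes that act with H2A.X at DNA breaks, 3 were called lower in RNA, beside 17.8% of all genes tested: the kinases PRKDC (3389 and 1476 reads) and ATM (553 and 250 reads), which phosphorylate H2A.X, and TP53BP1 (233 and 115 reads), which binds chromatin near breaks. PRKDC alone of the 8 was called lower in RPF, where 20.1% of all genes were.

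Of 12 chaperones tied to replication or general to histones, 7 were called lower in RNA (median −0.68, beside 17.8% of all genes tested) and 5 in RPF (beside 20.1%), and none higher in either. CHAF1A, of the chromatin assembly factor CAF-1, had 215 and 101 RNA reads and 123 and 27 RPF reads, and ASF1B had 319 and 133 and 338 and 96. NASP, which holds H3 and H4 in reserve, had 438 and 171 RNA reads, and HAT1, which acetylates new H4, had 705 and 332. No test of the difference between these lists was made.

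Of 12 genes that process stem-loop histone mRNAs, RNA calls were 2 in each direction, near the 17.8% lower and 16.2% higher of all genes tested, and the median was −0.17. SLBP, the stem-loop binding protein, had 295 and 149 RNA reads and 285 and 107 RPF reads and was called lower in both. NPAT, the coactivator of cluster histone transcription, had 197 and 106 RNA reads and was called lower in RNA, with 131 and 160 RPF reads. ERI1, an exonuclease that acts on the stem-loop, was called higher in RNA on 187 and 302 reads. NCBP1, a cap-binding protein, was called lower in RPF on 576 and 352 reads.

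Of 12 other variant genes listed, 11 were in the files and 4 had enough reads. CENPA, the centromeric H3, was called lower in both, with 256 and 100 RNA reads and 53 and 17 RPF reads. H2AFY2, the second macroH2A gene, was called higher in RNA on 26 and 71 reads, with 86 RPF reads in each genotype. H2AFJ was called higher in RPF on 504 and 773 reads, and H3F3C is described above.

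In their promoters, the members shared letters with the cluster genes. CCAAT, TTTCGCGC, TTTGGCGC and TATAAA were searched on both strands in the RefSeq promoter windows (250 bases before to 50 after each start, GRCh38.p14), which hold 7 of the 8 members. At least 3 CCAAT matches in 1 window were found for 4 of those 7 members (H2AFZ, H2AFX, H2AFV and H3F3B), for 27 of 54 cluster genes (50.0%) and for 3.92% of all 27305 genes. TATAAA was found for 4 of 7 members, 70.4% of cluster genes and 14% of all genes. TTTCGCGC was in none of the members, 22.2% of cluster genes and 0.630% of all genes, and TTTGGCGC in none of the members or cluster genes and 0.795% of all genes.

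The 250 bases before the start of H2AFX, the member with the lowest RNA change, and of H3F3B, whose RNA change was near 0, are shown because they hold the same motifs. Capitals mark CCAAT, its reverse complement ATTGG, and TATAAA. Each has 4 CCAAT matches, and TATAAA begins 31 bases before the start in H2AFX and 29 in H3F3B. The H2AFX stretch is chr11:119095466-119095715 and the H3F3B stretch chr17:75779780-75780029, both on the minus strand.
H2AFX: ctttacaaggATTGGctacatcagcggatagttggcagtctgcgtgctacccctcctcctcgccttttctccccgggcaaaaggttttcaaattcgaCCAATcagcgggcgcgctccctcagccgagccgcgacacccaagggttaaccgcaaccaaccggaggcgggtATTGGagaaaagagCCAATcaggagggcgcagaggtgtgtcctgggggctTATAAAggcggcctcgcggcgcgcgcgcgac
H3F3B: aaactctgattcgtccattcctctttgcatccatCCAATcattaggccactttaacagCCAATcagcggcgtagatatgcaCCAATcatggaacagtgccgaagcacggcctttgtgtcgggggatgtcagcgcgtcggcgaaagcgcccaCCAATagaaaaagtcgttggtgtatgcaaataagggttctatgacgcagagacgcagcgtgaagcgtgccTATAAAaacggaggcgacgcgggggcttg

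In H2AFX the matches lie on both strands, and in H3F3B all 4 are on the sense strand. The 2 genes, chosen after their values were seen, had RNA changes of −1.29 and 0.05. H2AFZ and H2AFV, the other members with at least 3 CCAAT matches in 1 window, had RNA changes of −1.24 and −0.65, both called lower. Whether the motifs go with the RNA change was not tested. A match is a description of the sequence, not a measured binding site.

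For each member, the gene most like it was taken as the nearest by Euclidean distance over 3 values (wild-type TE, RNA change and RPF change). The search covered 2701 genes with at least 200 reads in each library, with members and cluster genes left out. The closest pair was H2AFV and SMC1A, a cohesin subunit, at a distance of 0.038, with RNA changes of −0.65 and −0.62. H2AFY lay nearest to TNPO3 at 0.039, H1FX to EIF3E at 0.083 and H1F0 to PHLDB2 at 0.090. H3F3B lay nearest to MRPS31 at 0.105, H3F3A to RUVBL2 at 0.136 and H2AFZ to CPT1A at 0.141. H2AFX had the most distant neighbour, PPL at 0.364, whose RNA reads were 843 and 275 and RPF reads 468 and 288.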

How the data were processed

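Each library came from 3 pooled plates, and inserts of 18 to 34 nt (RPF) or 18 to 50 nt (RNA) were selected, per the labels' protocols. HISAT2 2.1.0, Bowtie 1.1.2, cutadapt 1.10 and the build GRCh38 are listed in the submitters' processing notes. Not given in the sources used here are the counted region, how reads matching several genes were treated, and whether molecular identifiers were collapsed. The authors deposited raw counts of reads, 1 whole number per gene and library. Library totals were 5551479 (wild-type RNA), 4932388 (knockout-labelled RNA), 3782874 (wild-type RPF) and 3778316 (knockout-labelled RPF). A count of 0 would allow up to 3 reads, or 0.540 to 0.794 CPM. PCR reads are not independent molecules, so intervals cover counting error only.

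The 2 libraries of a kind were scaled by TMM in edgeR 4.0.16 (R 4.3.3), with a knockout-labelled to wild-type ratio of effective library size of 0.900 for RNA and 1.00 for RPF. Changes are log2 ratios with a prior count of 0.5 and exact Clopper-Pearson 95% intervals. TE intervals come from reciprocal counts. TE change has 0 residual degrees of freedom in 4 libraries and is a value, not a test. The fits ran over all genes, in Python 3.11.15 with NumPy 2.4.6, SciPy 1.17.1 and pandas 2.3.3, and were tested on simulated data. The simulated counts held Poisson counting error only. They check the code and do not bear on replicate spread, PCR copies or shared reads. Alternatives covered scaling (library totals, DESeq2 1.42.0 size factors), read minimum, fold, prior count, length and gene sets. Named genes are the members, the cluster gene with most wild-type RNA reads in each class, IGF2BP1, up to 4 called genes of each list ranked by the interval bound nearest to no change, and each member's nearest gene. Not every gene of that rule is described. Of the transcripts in the files, 19176 (99.9%) were found in GENCODE 29 (Ensembl 94). The members and lists were chosen with earlier results of these data known.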

Additional observations from a re-analysis of the deposited data

How the results depend on the processing

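With library totals, DESeq2 size factors, a minimum of 20, 200 or 1 reads, or a prior count of 2, no member's call in RNA, RPF or TE differed from the one reported. The read minimums could not alter a member's call, because no member had fewer than 307 reads in any library. With a 2-fold call, 2 members were lower in RNA, 0 lower in RPF and 0 higher in TE, and of the cluster genes 6 were higher and 0 lower in TE. The members' median wild-type TE was 0.0015 with a minimum of 200 reads, which moves the median it is centred on, 0.48 in the knockout-labelled libraries and 0.34 with the length slope removed. H2AFV had a TE of −0.033 with a minimum of 200 reads, and H2AFX 0.048 in the knockout-labelled libraries, each of opposite sign to the wild-type value reported. The highest member over the lowest in knockout-labelled RPF was 7.60 per coding length, against 20.3 per transcript length. The TE change of H2AFY, 0.01, was −0.0044 with library totals.

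Shares are in the order wild-type RNA, knockout-labelled RNA, wild-type RPF, knockout-labelled RPF. Without cluster genes known to be polyadenylated, the H1 shares were 73.7%, 96.7%, 60.6% and 93.9%, and the H2A shares 36.4%, 60.7%, 22.2% and 43.9%. Without H2AFX the H2A shares were 28.5%, 51.0%, 18.4% and 35.2%. With H3F3C added, chosen after seeing the data like the length slope, the H3 shares were 25.4%, 62.5%, 15.5% and 54.2%. The H3F3A shares of the summed H3F3A, H3F3B and H3F3C reads were 44.1%, 32.7%, 51.1% and 35.2%. Under each of these, every knockout-labelled class share was above the wild-type one. The other 129 recomputed summary values stayed within their limits. The cause of each difference was not tested beyond what its construction shows. No paired analysis was possible because each group has 1 library. The lowest count of a member in any library was 307 reads, for H2AFX in knockout-labelled RPF.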
